A study of Mus musculus with 42 samples.

Results

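The 10 genes followed here were Ctcflos, Sgk2, Resf1, Fbxo31, Hcn3, Map3k13, Them7, Aldh3a2, Trpm6 and Gpat3, out of 54532 genes in the read count table. They were chosen by name because the diets differed in their liver expression at ZT 0 or over ZT 0, 4 and 8 (ZT, zeitgeber time, the hours since lights on). Their diet differences at these times chose them and are given as a description with no test. Tests compared libraries the choice did not use, for the diet difference at ZT 12 and for the change over the dark phase on the HFD. The spread behind these tests was estimated over all 30 fitted libraries, including those of ZT 0, 4 and 8. Their SEs and p-values are thus not fully free of the choice. Changes from ZT 0 to ZT 12 rest partly on the libraries that chose the members, and are given for them with no test. The filter on low values, a mean of at least 25 counts over the 30 fitted libraries, was passed by 9 members whether or not their highest group was counted. Trpm6 passed with a mean of 26.0 counts only through the HFD libraries of ZT 0, which chose it, since the other 27 averaged 21.04 counts, and it is described with no test.

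Female C57BL/6 mice (C57BL/6NHsd in the study's methods), weaned at 3 weeks of age, ate the AIN93G standard diet or a modified AIN93G with more of its energy from soybean oil (HFD, high-fat diet) for 3 weeks. Liver RNA was sequenced every 4 h from ZT 0 to ZT 24, at 7 time points, from 3 mice per diet and time point, in 42 libraries of 14592481 to 21368409 counted reads. Values are given as CPM, a gene's counts per 1000000 counted reads of its library, and a diet difference is on the log2 scale as HFD minus AIN93G from the fit. The library kit does not mark strand, so reads of genes that overlap on opposite strands cannot be told apart.

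Some libraries stood apart from their labels. In 32 libraries Alb, the plasma protein albumin made by hepatocytes, was at 66434 CPM or more. In the other 10, Alb was at most 81.0 CPM and Adipoq, the adipocyte hormone adiponectin, stood at 1455 to 2984 CPM, against at most 5.01 CPM in the liver libraries. The adipocyte-rich libraries comprised every AIN93G library at ZT 16 and ZT 20 and, at ZT 24, all but 1 of either diet, so the diets could be compared in liver with replicates only at ZT 0, 4, 8 and 12. The ZT 12 libraries split by clock genes. AIN93G replicates 2 and 3 and HFD replicate 3 had Arntl, an activator of the clock, at 38.4 to 46.9 CPM, Nr1d1, a clock repressor, at 1.72 to 5.602 CPM and Dbp, a clock output gene, at 0.129 to 0.369 CPM. The other 3 had Arntl at 0.898 to 1.67 CPM, Nr1d1 at 11.3 to 14.4 CPM and Dbp at 59.0 to 91.4 CPM. Of the 6, AIN93G replicate 2 and HFD replicate 3 are labelled as light phase and the other 4 as dark phase. At ZT 0 Arntl was at 39.9 to 49.1 CPM, and in the single liver library per diet at ZT 24 it was at 0.745 and 1.11 CPM. In bulk tissue, fewer cells of a type and less RNA per cell cannot be told apart.

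The members have different jobs in the cell. Gpat3 and Aldh3a2 handle lipids: fatty acids that reach the liver are built into triacylglycerol by acyltransferases or oxidized, and fatty aldehydes are cleared by dehydrogenases. Sgk2 and Map3k13 are signalling kinases, Hcn3 and Trpm6 are ion channels, and Fbxo31 and Resf1 belong to protein turnover and chromatin silencing. On a standard diet mice feed mainly in the dark.

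Per kilobase of transcript, Aldh3a2 had the highest level of the 10, with a median of 62.2 CPM per kb over the 32 liver libraries. Sgk2 and Fbxo31 followed at 9.76 and 8.88 CPM per kb, then Hcn3 at 5.55, Them7 at 4.60, Map3k13 at 3.10, Ctcflos at 3.08, Resf1 at 2.39 and Gpat3 at 1.92 CPM per kb, and Trpm6 was lowest at 0.173 CPM per kb. Neighbours in this order overlapped in their ranges over libraries, other than Aldh3a2, which lay above the rest in every library.

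Promoters are shown for the members in which a searched motif was found, so that its letters can be read beside the values that follow. They are the 250 bases before the RefSeq start site (GRCm38.p6), 5′ to 3′, with motifs in capitals. RefSeq promoters matched 8 of the 10 members, all but Sgk2 and Hcn3. The motifs, searched on both strands, were AGGTCA, the unit that nuclear receptors bind, CACGTG, the E-box of the clock activators, TTATGTAA, the D-box of Dbp, and a DR1 repeat, AGGTCA followed after any 1 base by AGNTCA, which includes the first motif and was picked after the Ctcflos sequence had been seen. They occurred in 14.02%, 6.02%, 0.819% and 0.0822% of all 32851 promoters of this length.
Ctcflos, chr2:173124499-173124748, plus strand: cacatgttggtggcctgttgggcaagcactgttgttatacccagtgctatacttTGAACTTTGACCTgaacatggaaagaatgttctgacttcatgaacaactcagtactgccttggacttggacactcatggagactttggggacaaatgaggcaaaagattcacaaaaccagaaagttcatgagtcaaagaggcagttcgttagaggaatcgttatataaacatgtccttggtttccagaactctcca
Them7, chr2:105224092-105224341, plus strand: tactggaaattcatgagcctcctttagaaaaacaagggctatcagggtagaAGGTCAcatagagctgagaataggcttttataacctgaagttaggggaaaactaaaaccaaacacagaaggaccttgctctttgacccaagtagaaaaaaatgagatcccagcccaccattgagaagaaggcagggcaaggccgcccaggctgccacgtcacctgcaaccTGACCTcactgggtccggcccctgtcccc
Aldh3a2, chr11:61267187-61267436, minus strand: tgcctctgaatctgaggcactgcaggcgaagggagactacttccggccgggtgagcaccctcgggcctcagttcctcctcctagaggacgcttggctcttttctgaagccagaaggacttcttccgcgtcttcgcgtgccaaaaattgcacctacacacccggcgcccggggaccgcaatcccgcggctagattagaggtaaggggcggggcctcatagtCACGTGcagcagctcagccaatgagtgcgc
The Ctcflos window held TGAACTTTGACCT, the DR1 repeat on the other strand, 196 bases before the start site, and this start lies 13931 bases inside the gene as the count table delimits it. The Them7 window held the short unit 199 and 29 bases before the start, which lies 22 bases inside the gene of the count table. The Aldh3a2 window held CACGTG 30 bases before the start. That start lies 278 bases inside the gene of the count table, so the whole Aldh3a2 window falls within that gene. The windows of Gpat3, Resf1, Fbxo31, Map3k13 and Trpm6 held none of these letters, with the start of Map3k13 lying 97623 bases inside the gene of the count table, that of Gpat3 516 bases inside and that of Trpm6 outside it. A match is a description of letters and not a bound site.

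**Figure D1:**
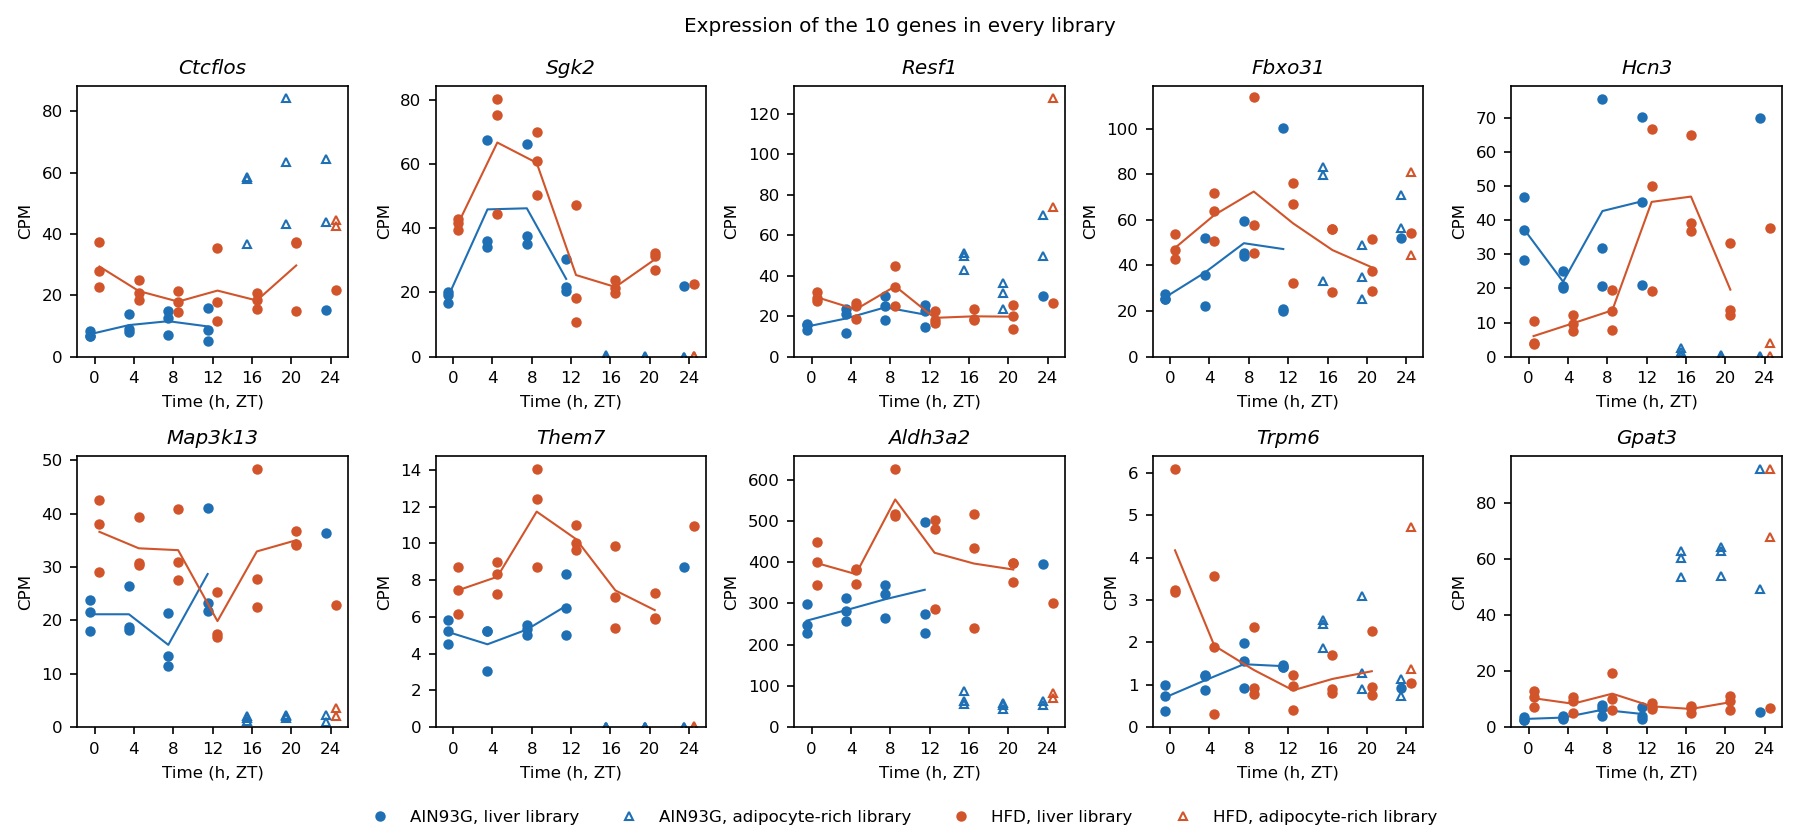
Level (CPM, vertical axis) of each of the 10 genes in every library by time (horizontal axis, ZT in hours). Filled circles are liver libraries, open triangles adipocyte-rich ones, blue AIN93G and orange HFD, and lines join the means of liver libraries, with no AIN93G line beyond ZT 12. At ZT 0 the orange circles lie above the blue ones in 9 genes and below them in Hcn3.

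At ZT 0 the diets did not overlap in any of the 10 genes, with 9 higher on the HFD and Hcn3 lower. The diets were apart in this way in 12.9% of all 12023 genes tested, and since this time chose the members nothing is read from their count. At ZT 4 the diets were apart in 6 of the 10 (7.98% of all genes) and at ZT 8 in 4 of the 10 (13.1% of all genes), both times that the choice used. The summed level of 4 macrophage markers was also higher on the HFD at ZT 0, at 431 to 870 CPM against 312 to 395 CPM, and that of 3 erythroid markers at ZT 4, at 107 to 151 CPM against 92.5 to 99.4 CPM. Their part in the members' values was not tested. Marker sums of hepatocytes, adipocytes, lymphocytes, fibroblasts, cholangiocytes and endothelial cells overlapped between the diets at ZT 0, 4, 8 and 12.

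At ZT 12, which the choice did not use, 0 of the 9 members tested passed the diet test (edgeR quasi-likelihood test, Benjamini-Hochberg adjusted p under 0.05), as did 0 of all 12023 genes (0%). Unadjusted p-values were under 0.05 for Ctcflos and Them7, which is 2 of 9 members against 7.28% of all genes. DESeq2 called 3 genes (0.025%), none of them a member. Without AIN93G replicate 1, 107 genes passed (0.89%) and Ctcflos was the only member among them, and with no filter on low counts 78 of 30203 genes passed (0.258%), again with Ctcflos. Without HFD replicate 3, 29 genes passed (0.241%) and no member. Without the 3 ZT 12 libraries with over 10 CPM of Arntl, 2 genes (0.0166%) and no member passed, with a single AIN93G library left at that time. The diets were apart in Them7 (higher on the HFD), 1 of the 9 against 9.65% of all genes, and also in Trpm6 (lower).

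**Figure D2:**
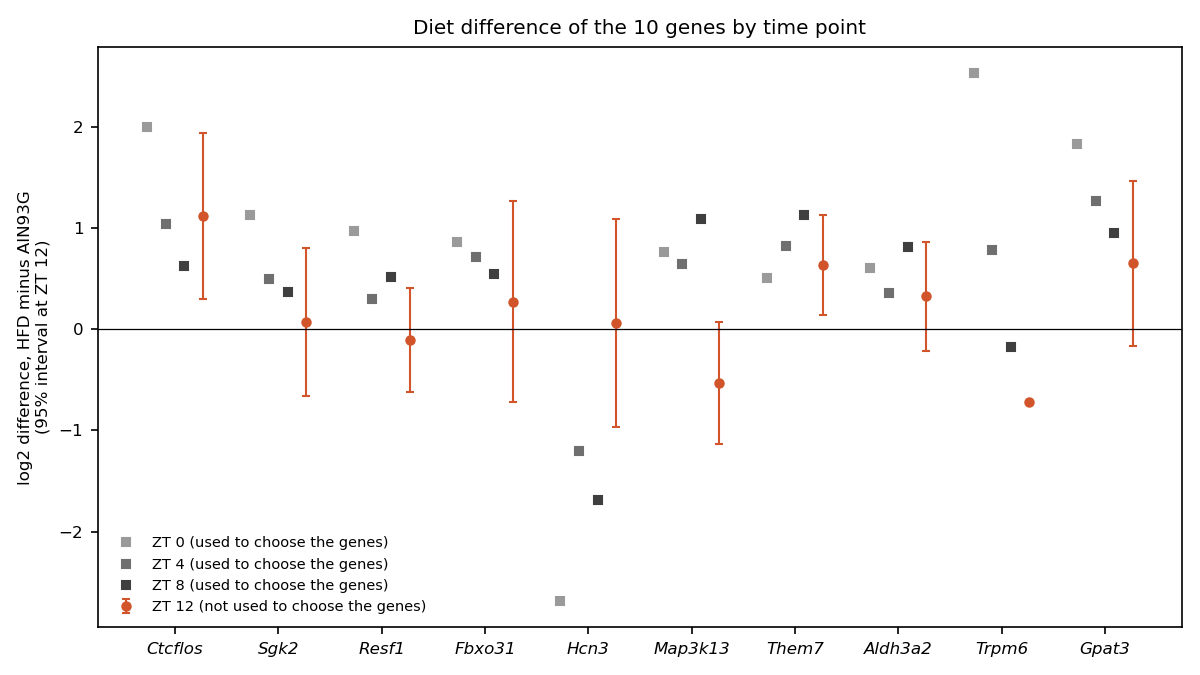
Difference between diets (vertical axis, log2, HFD minus AIN93G) of the 10 genes (horizontal axis) in the fit of 30 libraries. Grey squares are ZT 0, 4 and 8, which chose the genes, and orange circles are ZT 12 with the 95% interval for the 9 genes tested, which lies above 0 for Ctcflos and Them7 and spans 0 for the other 7. Trpm6 is shown without an interval.

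Gpat3 (ENSMUSG00000029314, chr5:100845713-100899102, plus strand, mm10) encodes an acyltransferase of the endoplasmic reticulum that adds a fatty acid to glycerol 3-phosphate on the way to triacylglycerol. At ZT 0 it stood at 2.45, 3.57 and 2.64 CPM on the AIN93G diet and at 7.14, 12.99 and 10.8 CPM on the HFD. All HFD libraries were higher, 3.55-fold in the fit (log2 1.83, SE 0.41). The difference was 1.26 (SE 0.40) at ZT 4 and 0.95 (SE 0.39) at ZT 8, when the AIN93G mice had 6.68, 7.74 and 4.12 CPM and the HFD mice 19.4, 10.1 and 6.22 CPM. At ZT 12 values of 7.06, 2.89 and 4.13 CPM faced 7.19, 8.76 and 6.32 CPM. Only the lowest HFD library fell below an AIN93G one there, and the log2 difference of 0.65 had a 95% interval of -0.16 to 1.47 (edgeR adjusted p = 0.706). It was 0.10 without the 3 libraries with high Arntl. In the dark phase on the HFD the gene averaged 6.47 ± 1.44 CPM at ZT 16 and 8.88 ± 2.61 CPM at ZT 20 (SD, n = 3). A noncoding gene on the other strand, 4930458D05Rik, shares 1052 exonic bases with Gpat3 but had a mean of 5.5 counts against 118 for Gpat3.

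Aldh3a2 (ENSMUSG00000010025, chr11:61223417-61267464, minus strand) encodes the fatty aldehyde dehydrogenase, which oxidizes long-chain aldehydes to fatty acids. At ZT 0 the AIN93G libraries held 299, 247 and 228 CPM and the HFD libraries 345, 448 and 401 CPM. At ZT 8 they held 345, 322 and 263 CPM against 518, 627 and 511 CPM. The HFD libraries were higher without overlap at ZT 0, 4 and 8, and the gap was widest at ZT 8 (log2 0.82, SE 0.26) and narrowest at ZT 4 (log2 0.36, SE 0.26). At ZT 12 the values were 497, 228 and 274 CPM on the AIN93G diet and 285, 482 and 502 CPM on the HFD. These intermixed, and the difference of 0.33 (95% interval -0.21 to 0.86, edgeR adjusted p = 0.761) turned to -0.46 without the 3 libraries with high Arntl. Its HFD means were 397 ± 141 CPM at ZT 16 and 382 ± 26.9 CPM at ZT 20 (SD, n = 3).

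Them7 (ENSMUSG00000055312, chr2:105224320-105379796, plus strand), a little studied member of the thioesterase superfamily, was the member whose diets were apart at ZT 0, 4, 8 and 12. At ZT 0 it was at 4.51, 5.82 and 5.21 CPM on the AIN93G diet and at 8.73, 7.46 and 6.16 CPM on the HFD. At ZT 8 the AIN93G libraries held 5.32, 5.58 and 5.03 CPM and the HFD libraries 8.74, 12.4 and 14.03 CPM. The difference was 0.50 (SE 0.24) at ZT 0, 0.82 (SE 0.24) at ZT 4 and 1.12 (SE 0.24) at ZT 8, a course that was not tested. At ZT 12 the values were 8.31, 6.46 and 5.03 CPM against 9.66, 10.05 and 11.01 CPM. Every HFD library was above every AIN93G library, including the HFD library with high Arntl, and the difference of 0.63 (SE 0.24, 95% interval 0.14 to 1.13) did not pass the test (unadjusted p = 0.0137, edgeR adjusted p = 0.618). It was 0.17 without the 3 libraries with high Arntl, where the AIN93G diet is left with the library at 8.31 CPM. On the HFD the mean was 10.2 ± 0.695 CPM at ZT 12, 7.44 ± 2.24 CPM at ZT 16 and 6.37 ± 0.795 CPM at ZT 20 (SD, n = 3), which did not pass the time test (unadjusted p = 0.0169, edgeR adjusted p = 0.266).

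Sgk2 (ENSMUSG00000017868, chr2:162987330-163014127, plus strand) encodes a serine/threonine kinase of the SGK family, relatives of Akt in insulin and growth factor signalling. Its ZT 0 values were 20.1, 19.3 and 16.6 CPM on the AIN93G diet and 42.9, 41.7 and 39.4 CPM on the HFD. Both groups were tight and the HFD libraries 2.18-fold higher in the fit (log2 1.12, SE 0.36). At ZT 4 the values were 67.4, 34.1 and 36.1 CPM against 44.4, 80.3 and 75.4 CPM, and at ZT 8 they were 34.99, 37.5 and 66.2 CPM against 69.9, 61.1 and 50.3 CPM. The diets overlapped at both times. Across time, in the mean of both diets, Sgk2 was 2.06-fold higher at ZT 4 than at ZT 0 (log2 1.04, SE 0.25) and 1.997-fold higher at ZT 8 (log2 1.00, SE 0.25), and at ZT 12 it differed from ZT 0 by -0.09 (SE 0.25). The mean log2 CPM went from 4.19 at ZT 0 to 5.45 at ZT 4 on the AIN93G diet and from 5.31 to 5.99 on the HFD. The AIN93G libraries of ZT 12 were at 21.6, 20.6 and 30.4 CPM and the HFD libraries at 10.8, 18.3 and 47.2 CPM. The HFD values enclosed the AIN93G ones, the library at 47.2 CPM being the HFD library with high Arntl, and the diet difference of 0.07 had a 95% interval of -0.66 to 0.80 (edgeR adjusted p = 0.972). It was -0.65 without the 3 libraries with high Arntl. On the HFD it was at 21.7 ± 2.06 CPM at ZT 16 and 30.3 ± 2.93 CPM at ZT 20 (SD, n = 3).

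Map3k13 (ENSMUSG00000033618, chr16:21794346-21933439, plus strand) encodes the leucine zipper-bearing kinase, which acts upstream of the stress kinase JNK. Values at ZT 0 were 23.8, 21.6 and 17.96 CPM on the AIN93G diet and 42.6, 29.1 and 38.02 CPM on the HFD. At ZT 8 it was at 13.4, 11.4 and 21.4 CPM against 30.98, 27.6 and 40.8 CPM. HFD libraries were above all AIN93G libraries at ZT 0, 4 and 8, by 2.12-fold in the fit at ZT 8 (log2 1.09, SE 0.30). At ZT 12 the values were 41.1, 21.7 and 23.2 CPM on the AIN93G diet and 16.9, 25.3 and 17.4 CPM on the HFD. The groups overlapped, and the difference of -0.54 (SE 0.29, 95% interval -1.14 to 0.07) did not pass the test (edgeR adjusted p = 0.679). It was -0.09 without the AIN93G library at 41.1 CPM and -1.04 without the 3 libraries with high Arntl. On the HFD the mean was 19.8 ± 4.69 CPM at ZT 12, 32.9 ± 13.6 CPM at ZT 16 and 34.99 ± 1.52 CPM at ZT 20 (SD, n = 3), and the time test gave an unadjusted p of 0.0301 and an edgeR adjusted p of 0.314. The noncoding gene 1300002E11Rik on the same strand shares 227 exonic bases with Map3k13 and had r of 0.106 with it over the 30 libraries.

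Hcn3 (ENSMUSG00000028051, chr3:89146074-89160196, minus strand) encodes a hyperpolarization-activated cyclic nucleotide-gated channel, of a family best known as the pacemaker channels of heart and neurons. Mice fed the AIN93G diet had 46.8, 37.2 and 28.4 CPM at ZT 0 and mice fed the HFD had 10.51, 3.67 and 3.86 CPM. It was the member that was lower on the HFD, with AIN93G libraries 6.44-fold higher in the fit (log2 -2.69, SE 0.55). At ZT 4 the values were 24.99, 20.2 and 20.8 CPM against 12.3, 9.47 and 7.50 CPM, and at ZT 8 they were 20.7, 31.8 and 75.7 CPM against 7.91, 13.3 and 19.5 CPM. The diets stayed apart at both times. At ZT 12 they overlapped, with 21.1, 45.4 and 70.2 CPM against 50.2, 66.9 and 19.1 CPM. The difference was 0.06 with a wide 95% interval of -0.97 to 1.08 (edgeR adjusted p = 0.986), and it was 1.39 without the 3 libraries with high Arntl. In the mean of both diets Hcn3 was 3.22-fold higher at ZT 12 than at ZT 0 (log2 1.69, SE 0.37), a value that carries no test. The rise from ZT 0 to ZT 12 lay mostly on the HFD, where the mean log2 CPM went from 2.38 to 5.38, against 5.16 to 5.38 on the AIN93G diet, and the low HFD level at ZT 0 is among the values that chose the gene. On the HFD the mean was 47.0 ± 15.7 CPM at ZT 16 and 19.6 ± 11.8 CPM at ZT 20 (SD, n = 3), which did not pass the test over ZT 12 to ZT 20 (edgeR adjusted p = 0.341) but passed with no filter on low counts (edgeR adjusted p = 0.00486).

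Hcn3 lies tail to tail with Pklr, the gene of liver pyruvate kinase in glycolysis, and the genes share 711 exonic bases on opposite strands. Over the 30 libraries Pklr was the gene most like Hcn3 (Pearson r = 0.938, and 0.882 after removing group means), followed by the glycolytic Gpi1 (r = 0.899) and the fatty acid elongase gene Elovl6 (r = 0.888). The diet difference of Pklr over ZT 0, 4 and 8, the times that chose Hcn3, was -1.13 (log2, SE 0.21), with 162 ± 49.2 CPM against 499 ± 126 CPM at ZT 0 (SD, n = 3). At ZT 12 its difference was -0.31 (SE 0.36). These values of a gene singled out by its likeness to Hcn3 carry no test. The counts of Hcn3 were 7.42 to 7.67% of those of Pklr in the AIN93G libraries of ZT 0, 2.37 to 4.90% in the HFD libraries of ZT 0, and up to 15.0% over the 32 liver libraries. In the adipocyte-rich libraries Hcn3 reached 3.86 CPM with Pklr at no more than 0.255 CPM. How many Hcn3 counts were Pklr reads was not tested. Clk2 and Scamp3, the other expressed genes within 20 kb, had r of 0.0327 and 0.103 with Hcn3.

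Trpm6 (ENSMUSG00000024727, chr19:18749983-18892510, plus strand) encodes a magnesium channel joined to a kinase domain, known from kidney and gut. Its counts were few, from 5 to 109 per fitted library, so counting error weighs on each value. At ZT 0 it had 18, 11 and 6 counts on the AIN93G diet (1.00, 0.727 and 0.377 CPM) and 49, 53 and 109 counts on the HFD (3.24, 3.19 and 6.10 CPM). The HFD libraries of ZT 0 were 5.77-fold higher in the fit (log2 2.53, SE 0.61) and had the highest mean of any liver group, 4.18 ± 1.67 CPM (SD, n = 3). At ZT 4 the HFD values spread over 3.57, 1.89 and 0.297 CPM, around AIN93G values of 0.868, 1.23 and 1.21 CPM. At ZT 8 the difference was -0.17 (SE 0.59). By ZT 12 the gene was at 1.42, 1.48 and 1.42 CPM on the AIN93G diet and at 0.977, 0.393 and 1.24 CPM on the HFD. The AIN93G libraries were the higher ones, by a difference of -0.72 (SE 0.61) that carries no test. It was -1.12 without the 3 libraries with high Arntl.

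Fbxo31 (ENSMUSG00000052934, chr8:121549440-121578806, minus strand) encodes an F-box protein, the subunit that binds substrates in an SCF ubiquitin ligase. Mice fed the AIN93G diet had 25.4, 27.4 and 25.2 CPM at ZT 0 and mice fed the HFD had 46.6, 53.7 and 42.7 CPM. The groups were tight and apart (log2 0.86, SE 0.49), whereas at ZT 4 (22.3 to 52.0 against 50.8 to 71.8 CPM) and ZT 8 (44.05 to 59.6 against 45.6 to 114 CPM) they overlapped. At ZT 12 it was at 100.4, 20.2 and 20.9 CPM on the AIN93G diet and at 76.2, 67.0 and 32.1 CPM on the HFD. The 3 libraries with high Arntl were the lowest 3 of the 6, and their part in the diet difference was not tested. That difference, 0.27 (95% interval -0.72 to 1.26, edgeR adjusted p = 0.9004), was -0.56 without them and 1.60 without the AIN93G library at 100.4 CPM. Its HFD means were 46.7 ± 15.9 CPM at ZT 16 and 39.2 ± 11.5 CPM at ZT 20 (SD, n = 3).

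The gene most like Fbxo31 was Map1lc3b, which encodes the autophagy protein LC3B and lies 11554 bases away on the other strand (r = 0.910, and 0.932 after removing group means). Gne, of sialic acid synthesis, and Saa4, a serum amyloid gene, came next with r of 0.902 and 0.880. The diet difference of Map1lc3b over ZT 0, 4 and 8 was 0.21 (log2, SE 0.12). Fbxo31 counts were 27.6 to 28.8% of those of Map1lc3b in the AIN93G libraries of ZT 0 and 42.65 to 47.5% in the HFD libraries. Zcchc14, the other expressed gene within 20 kb, had r of 0.276 with Fbxo31.

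Resf1 (ENSMUSG00000032712, chr6:149309414-149335663, plus strand) takes part in the silencing of endogenous retroelements with the histone methyltransferase Setdb1. Its levels at ZT 0 were 12.96, 16.0 and 15.5 CPM on the AIN93G diet and 32.1, 27.3 and 28.9 CPM on the HFD. The HFD libraries were 1.96-fold higher in the fit with no overlap (log2 0.97, SE 0.25). At ZT 4 (11.8 to 23.7 against 18.7 to 26.3 CPM) and ZT 8 (18.1 to 29.8 against 24.9 to 44.9 CPM) the diets overlapped. The AIN93G libraries of ZT 12 were at 22.3, 14.6 and 25.4 CPM and the HFD libraries at 17.99, 22.7 and 16.7 CPM. These were intermixed, with a difference of -0.10 (95% interval -0.62 to 0.41, edgeR adjusted p = 0.933). On the HFD the means of ZT 12, 16 and 20 were 19.2 ± 3.16, 19.9 ± 2.94 and 19.7 ± 5.77 CPM (SD, n = 3), and the time test gave an edgeR adjusted p of 0.997.

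Ctcflos (ENSMUSG00000087382, chr2:173110818-173133204, plus strand) is a noncoding RNA opposite Ctcfl, the gene of a germline paralog of the insulator protein CTCF. At ZT 0 it was at 6.62, 8.33 and 6.85 CPM on the AIN93G diet and at 28.04, 37.4 and 22.6 CPM on the HFD. The HFD libraries were 3.998-fold higher in the fit (log2 1.999, SE 0.41), after Hcn3 and Trpm6 the widest gap of the 10. The difference was 1.04 (SE 0.40) at ZT 4 and 0.63 (SE 0.40) at ZT 8, where the lowest HFD library, at 14.7 CPM, lay just under the highest AIN93G library, at 14.8 CPM. At ZT 12 the values were 15.9, 4.92 and 8.64 CPM against 17.8, 35.3 and 11.5 CPM. On each diet the libraries with high Arntl were the lower ones, and the diets overlapped. The difference was 1.12 (SE 0.40, 95% interval 0.30 to 1.94) and did not pass the test (unadjusted p = 0.00965, edgeR adjusted p = 0.618). It passed without the AIN93G library at 15.9 CPM (log2 1.76, edgeR adjusted p = 0.0485), was 0.55 without the HFD library at 35.3 CPM (edgeR adjusted p = 0.635) and was 0.65 without the 3 libraries with high Arntl. On the HFD it was at 18.3 ± 2.66 CPM at ZT 16 and 29.7 ± 12.8 CPM at ZT 20 (SD, n = 3).

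The spans of Ctcflos and Ctcfl share 8708 bases, 171 of them exonic in both, and Ctcfl was the gene most like Ctcflos (r = 0.887, and 0.799 after removing group means). Ctcfl was at 2.52 ± 1.15 CPM on the AIN93G diet and 7.15 ± 2.27 CPM on the HFD at ZT 0 (SD, n = 3). Over ZT 0, 4 and 8, times that chose Ctcflos, its diet difference was 0.98 (log2, SE 0.25), given with no test. Pck1, the gene of a gluconeogenic enzyme 19843 bases beyond Ctcflos on the same strand, had r of 0.594 with it (0.701 after removing group means) and a diet difference of 0.38 (SE 0.26) over the same times. How the reads of the shared exonic bases divide between Ctcflos and Ctcfl was not tested.

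**Figure D3:**
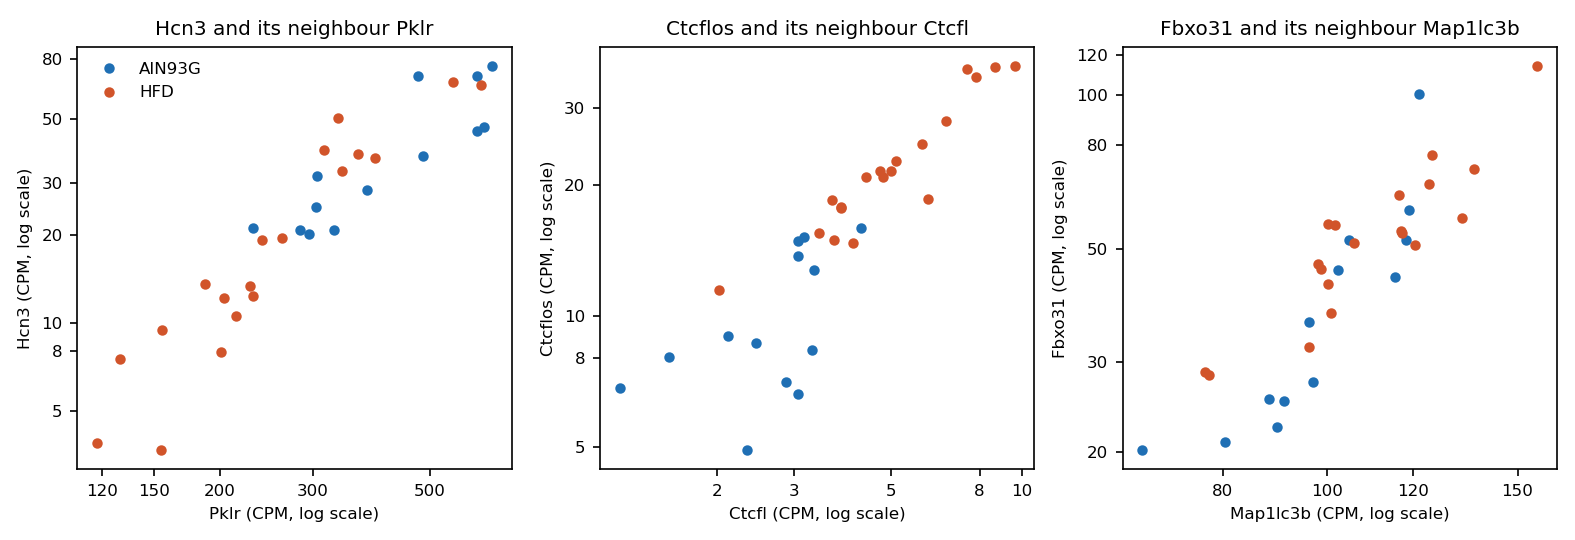
A member (vertical axis, CPM on a log scale) against the neighbouring gene most like it (horizontal axis, CPM on a log scale) in the 32 liver libraries, blue AIN93G and orange HFD, for Hcn3 with Pklr, Ctcflos with Ctcfl and Fbxo31 with Map1lc3b. The points rise together in each panel, with r of 0.938, 0.887 and 0.910 over the 30 fitted libraries.

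For the other members the genes most alike, as Pearson r of log2 CPM over the 30 libraries, which share diet and time groups, were not neighbours. Sgk2 was most like the amino acid transporter gene Slc38a7 (r = 0.801), Dcaf11 (r = 0.783) and the sphingomyelin synthase gene Sgms2 (r = 0.762), and Map3k13 was most like Amotl2 (r = 0.801), Arl13b (r = 0.793) and Ipmk (r = 0.759). Aldh3a2 was most like Entpd5 (r = 0.871), Hadh, of mitochondrial fatty acid oxidation (r = 0.856), and Hsd17b4, of peroxisomal fatty acid oxidation (r = 0.772). Gpat3 was most like Efna5 (r = 0.785), the carnitine transporter gene Slc22a5 (r = 0.781) and the epoxide hydrolase gene Ephx2 (r = 0.780), and Them7 was most like Gatb (r = 0.788), Agxt2 (r = 0.728) and Rmdn3 (r = 0.712). Among expressed genes within 20 kb, r was 0.509 for Sgk2 with Ift52, 0.0866 and 0.197 for Map3k13 with Ehhadh and Tmem41a, and 0.0663 for Them7 with Rcn1. Resf1 was most like Amn1 (r = 0.785), Lmbrd1 (r = 0.744) and Kansl1l (r = 0.732). Trpm6 had the lowest values, with Vsig10 (r = 0.694), Mgat4a (r = 0.630) and Ucp2 (r = 0.619). Ctcflos was next most like Lpgat1 (r = 0.762) and C730036E19Rik (r = 0.728).

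From ZT 0 to ZT 12, in the mean of both diets, Sgk2 was highest at ZT 4 and ZT 8 and Hcn3 at ZT 12. All 12 genes of a clock list passed the time test over these times (edgeR), against 8.23% of all genes. Of the other members, Resf1 (log2 0.55, SE 0.18), Fbxo31 (0.84, SE 0.34), Aldh3a2 (0.43, SE 0.18) and Gpat3 (0.72, SE 0.28) had their highest difference from ZT 0 at ZT 8, and Them7 (0.51, SE 0.17) had it at ZT 12. Ctcflos differed from ZT 0 by at most 0.11 (SE 0.28) in the mean of both diets, while its mean log2 CPM went from 2.84 at ZT 0 to 3.50 at ZT 8 on the AIN93G diet and from 4.79 to 4.16 on the HFD.

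Over ZT 12 to ZT 20 on the HFD, 0 of the 9 members tested passed the time test (edgeR), against 0.025% of all genes. Unadjusted p-values were under 0.05 for Hcn3, Map3k13 and Them7, 3 of 9 members against 13.9% of all genes, and DESeq2 called none of the 9, against 1.42% of all genes. With no filter on low counts Hcn3 passed, 1 of 9 against 1.21% of all 30203 genes. At ZT 24 the single liver library of each diet allows no test. Hcn3 was at 70.1 CPM on the AIN93G diet and 37.8 CPM on the HFD, Ctcflos at 15.1 and 21.5 CPM, Them7 at 8.71 and 10.9 CPM, and Gpat3 at 5.33 and 6.77 CPM, each in the direction of ZT 0. Map3k13 at 36.4 and 22.8 CPM, Aldh3a2 at 396 and 300.1 CPM and Resf1 at 29.8 and 26.7 CPM went the other way. Sgk2 was at 22.01 and 22.5 CPM, Fbxo31 at 52.1 and 54.2 CPM and Trpm6 at 0.917 and 1.04 CPM.

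The adipocyte-rich libraries gave the members a second set of levels that the choice did not use. Sgk2 and Them7 were nearly absent there. Sgk2 had 0 to 6 counts per adipocyte-rich library against 188 or more per liver library, and Them7 had at most 1 count. Against a floor of 3 counts per library, the liver median of Them7, 7.16 CPM, was at least 37.5-fold higher. Hcn3 (median 0.213 against 23.1 CPM in liver), Map3k13 (2.11 against 27.05 CPM) and Aldh3a2 (60.4 against 349 CPM) had lower medians, with no overlap for Map3k13 and Aldh3a2. Fbxo31 (52.7 against 48.7 CPM) and Trpm6 (1.62 against 1.12 CPM) had similar medians. Resf1 (49.6 against 23.02 CPM) and Ctcflos (51.2 against 15.7 CPM) had higher medians, with overlap. Gpat3, at 49.4 to 92.1 CPM, lay above every liver library (2.45 to 19.4 CPM). Only at ZT 24 did both kinds of library occur on the same diet. Gpat3 was there at 49.4, 92.0, 92.1 and 68.0 CPM in the adipocyte-rich libraries and at 5.33 and 6.77 CPM in the liver ones. At ZT 16 and ZT 20 the adipocyte-rich libraries were AIN93G and the liver ones HFD. The kinds were told apart by measured levels and not by the labels, so these values carry no test. The share of all genes that do not overlap between the kinds was not computed. Nothing is therefore read from which members were apart.

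**Figure D4:**
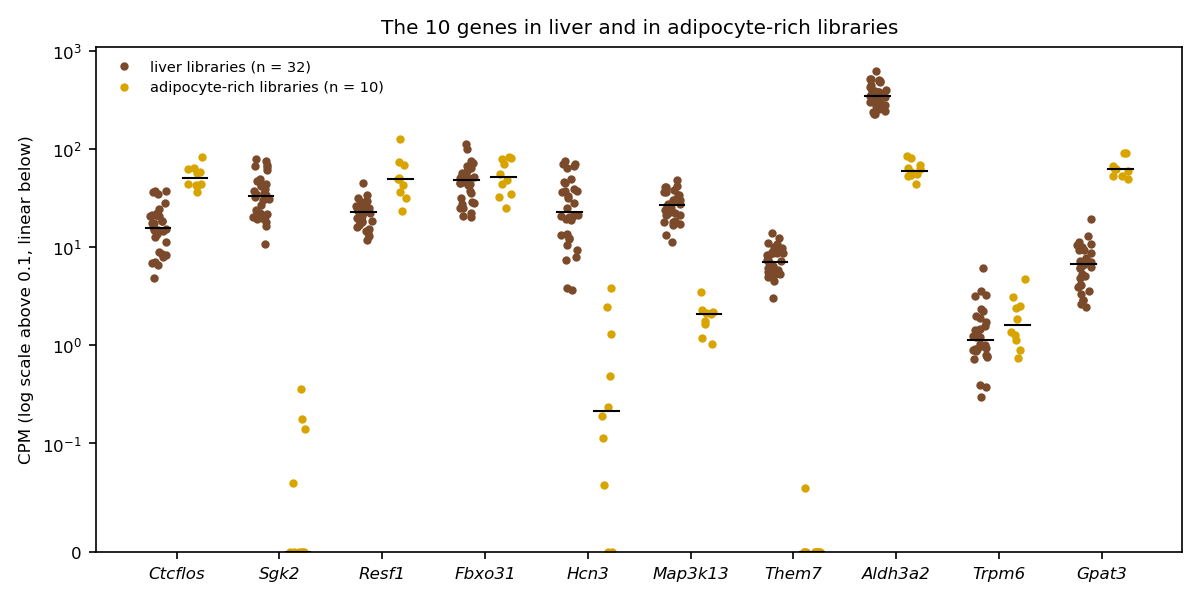
CPM of the 10 genes (vertical axis, log scale above 0.1 and linear below) in 32 liver libraries (brown) and 10 adipocyte-rich libraries (yellow), each point a library and each line a median. Sgk2 and Them7 lie at or near 0 in the adipocyte-rich libraries, and Gpat3 lies above all liver libraries.

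Lists of related genes, with the members left out, were set beside them. Of 128 genes tested in 10 lists, 0 passed the diet test over ZT 0, 4 and 8 (edgeR), against 0.133% of all genes. Unadjusted p-values were under 0.05 for 11 of the 128, against 11% of all genes. DESeq2 called 2 of the 128, against 0.94% of all genes, the retinal dehydrogenase gene Aldh1a1 (log2 0.70, SE 0.15, edgeR adjusted p = 0.0608) and the fatty acid hydroxylase gene Cyp4v3 (log2 0.32, SE 0.08, edgeR adjusted p = 0.115). At ZT 12, 0 passed with edgeR and 0 with DESeq2, and 7 had unadjusted p-values under 0.05, against 7.28% of all genes.

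In the lipid lists, omega oxidation of fatty acids, a source of the long-chain aldehydes that Aldh3a2 clears, had a median difference of 0.22 over 10 genes, beside 0.00 for all genes. Its most abundant gene, Cyp4a14, was at 0.75 (SE 0.42, edgeR adjusted p = 0.513), with reads that near-identical Cyp4a copies may share. The other aldehyde dehydrogenases had a median of 0.09 over 14 genes, with the mitochondrial Aldh2 at -0.15 (SE 0.10). Glycerolipid synthesis, the pathway of Gpat3, had a median of -0.02 over 13 genes, with Dgat2, of the last step to triacylglycerol, at -0.10 (SE 0.10). Acyl-CoA thioesterases, with which Them7 is grouped, had a median of 0.10 over 13 genes, with the bile acid conjugating Baat at 0.07 (SE 0.09).

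In the signalling lists, the SGK and PI3K genes around Sgk2 had a median of 0.05 over 16 genes, with Akt2 at -0.03 (SE 0.06), and the MAP3K to JNK genes around Map3k13 had one of 0.02 over 15 genes, with Mapk9 at 0.12 (SE 0.07). Magnesium transport genes had a median of 0.14 over 14 genes, with Magt1 at -0.02 (SE 0.12). The SCF ligase genes around Fbxo31 had a median of 0.02 over 18 genes, with the shared subunit gene Skp1a at 0.23 (SE 0.08, edgeR adjusted p = 0.262), and retroelement silencing genes had one of 0.02 over 14 genes, with the corepressor gene Trim28 at -0.08 (SE 0.06). Of the HCN list 1 of 5 genes passed the filter on low values, the channel partner Kctd3 at -0.08 (SE 0.09).

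In the time test over ZT 0 to ZT 12, 12 of the 128 related genes passed (edgeR), against 8.23% of all genes, and 26 did so without the 3 ZT 12 libraries with high Arntl, against 17.5% of all genes. By list, the 12 were 3 glycerolipid synthesis, 3 magnesium transport, 2 SGK and PI3K, 2 thioesterase, 1 SCF ligase and 1 retroelement silencing genes. Among them were Nedd4l, a ubiquitin ligase that SGK kinases phosphorylate (edgeR adjusted p = 0.00174), and Lpin1, the phosphatidate phosphatase gene downstream of Gpat3 (edgeR adjusted p = 0.0157). Both were named after their values were seen. Over ZT 12 to ZT 20 on the HFD, 0 of the 128 passed with edgeR, 16 had unadjusted p-values under 0.05, against 13.9% of all genes, and DESeq2 called 3, against 1.42% of all genes.

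**Figure D5:**
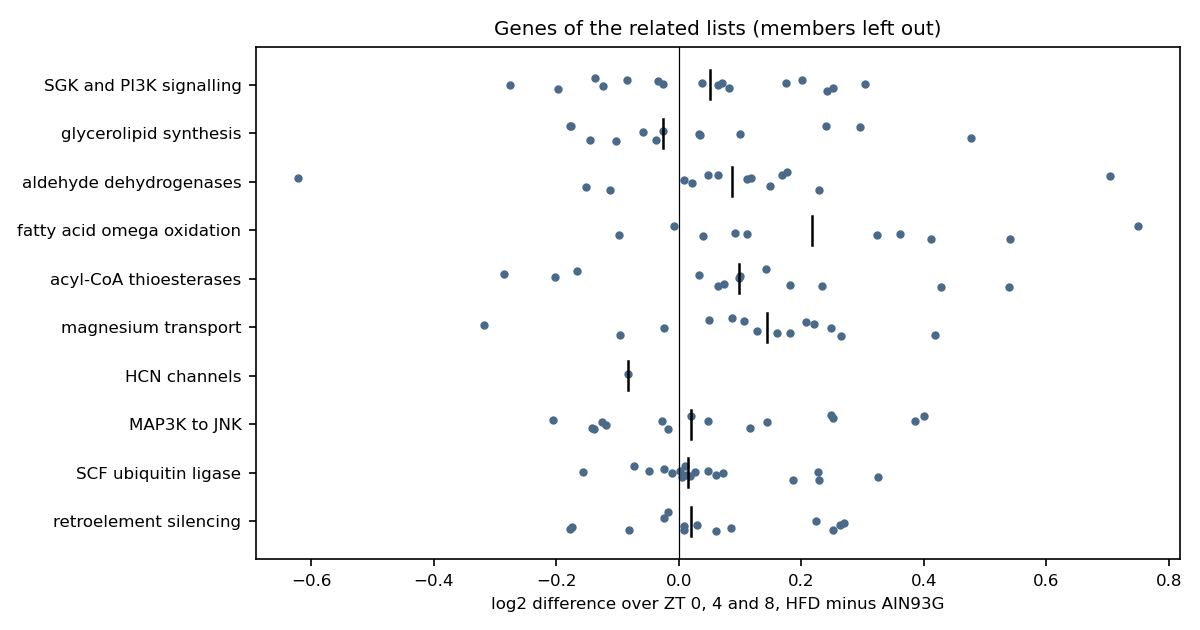
Difference between diets over ZT 0, 4 and 8 (horizontal axis, log2, HFD minus AIN93G) of the genes in 10 related lists (vertical axis), each point a gene and each black line the list's median. The medians lie between -0.08 and 0.22, and no gene passed the test.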

How the data were processed

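Poly(A) RNA from mouse liver was sequenced in 42 libraries. The authors deposited a table of raw read counts per gene. Their processing notes list fastp, STAR, HTSeq 0.6.1, DESeq and STAR-Fusion with mm10. The strand setting of the counting is not given in the sources used here. Gene coordinates are those of the table. The members and gene lists were chosen with earlier results of these data known.

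Counts of 30 liver libraries (the 10 diet and time groups with over 10000 CPM of Alb in every library, 20 residual degrees of freedom) entered 1 edgeR 4.0.16 quasi-likelihood fit (R 4.3.3) with TMM factors, 1 coefficient per group, and genes whose mean count reached 25. Adjusted p-values are Benjamini-Hochberg over all 12023 genes. The SE is the log2 difference over the root of its F. DESeq2 1.42.0, limma voom, other size factors, other filters, other sets of libraries and leaving out each library were the alternatives. The labels do not say whether replicates share a cage or batch, and they put 2 of the 6 ZT 12 libraries in the light phase. The p-values set a difference against the spread between these samples within groups, with the samples taken as independent. In each of 42 replicate pairs the variance between the 2 libraries was at least 16.0 times that of sampling noise (chi-square per degree of freedom). The genes named were the members, the 3 genes most like each, expressed genes within 20 kb, and of each list the genes passing a diet test or else the most abundant one. Aldh1a1, Cyp4v3, Nedd4l and Lpin1 were named after their values were seen. The scripts were tested on simulated data.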

Additional observations from a re-analysis of the deposited data

Results flagged for a closer look

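Gpat3 was flagged because its level in every adipocyte-rich library lay above all its liver libraries. No diet or time comparison used the adipocyte-rich libraries. The median of Gpat3 was 62.7 CPM in these 10 libraries, and all of them lay above the highest liver library at 19.4 CPM. The share of all genes that lie apart in this way was not computed. The groups of 3 mice were too small for a search for single outlying samples.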

How the results depend on the processing

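The main counts were 0 for diet at ZT 12, 16 for diet over ZT 0, 4 and 8, 990 for time of day over ZT 0 to ZT 12 and 3 for time of day over ZT 12 to ZT 20 on the HFD. In this order, DESeq2 called 3, 113, 1627 and 171 genes, and no filter on low counts gave 78, 282, 1818 and 366. Leaving out the 3 ZT 12 libraries with over 10 CPM of Arntl, a choice made after seeing the data, gave 2, 66, 2108 and 552. For diet over ZT 0, 4 and 8, library size alone gave 25 genes, of which 18 were higher on the HFD against 9 of 16 with TMM, and the libraries of these times alone gave 65. The HFD libraries alone gave 0 for ZT 12 to ZT 20. With single libraries left out the counts ran from 0 to 107, 1 to 55, 614 to 1445 and 0 to 266. The highest came without AIN93G replicate 1 of ZT 12 (107 and 55) and without HFD replicate 3 of ZT 12 (1445 and 266), and the count of 1 came without AIN93G replicate 1 and that of 614 without AIN93G replicate 3, both of ZT 0. The cause was not tested.

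At ZT 12 the diet differences of some members turned. With dark-phase labels only, Sgk2 was at -0.82 and Aldh3a2 at -0.031, and without the 3 libraries Sgk2 was at -0.65, Fbxo31 at -0.56 and Aldh3a2 at -0.46. Sgk2 was also at -0.17 with limma voom. With library size alone Hcn3 was at -0.0025. With single libraries left out Ctcflos ran from 0.55 to 1.76, Sgk2 from -0.69 to 0.43, Resf1 from -0.33 to 0.019, Fbxo31 from -0.12 to 1.60 and Hcn3 from -0.33 to 0.48. Aldh3a2 ran from 0.084 to 0.83, Gpat3 from 0.37 to 1.16, Them7 from 0.44 to 0.91 and Map3k13 from -0.76 to -0.092. Ctcflos at ZT 12 passed with no filter (1.12, edgeR adjusted p = 0.0226). Trpm6 fell below the filter without HFD replicate 3 of ZT 0, without HFD replicate 1 of ZT 4, with the ZT 12 libraries alone, with the HFD libraries of ZT 12 to ZT 20 alone, and with at least 25 counts required in every library.

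No paired analysis was possible because the replicate numbers only follow accession order. In 13 fitted libraries the title shares its start with another library, 6 such starts in all, none of them on both diets, and as a fixed term they leave 0 residual degrees of freedom. What the start stands for is not given in the sources used here. As a random effect in limma voom, added after seeing the data, its correlation was 0.016 and the counts were 0, 15, 916 and 3, against 0, 15, 905 and 3 without it, and Sgk2 at ZT 12 was at -0.16.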
